A study of Mus musculus with 11 samples.

Results

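The nuclear genes for the subunits of respiratory complex III, complex IV and ATP synthase were examined in gonadal white adipose tissue (WAT) of mice fed a high fat diet (HFD) with or without iodomethylcholine (IMC). Genes were taken by symbol, namely every symbol beginning with Uqcr or Atp5, every symbol beginning with Cox4 to Cox8, and Cyc1. This gave 38 of the 12787 listed genes, with 9 for complex III, 14 for complex IV and 15 for ATP synthase. The names bring in 3 genes that do not encode core subunits, namely Cox7a2l, for a supercomplex factor counted with complex IV, and Atp5s and Atp5sl (Dmac2l and Dmac2 in RefSeq), counted with ATP synthase. Both groups were male C57Bl6/J mice kept on the 60% HFD for 20 weeks. The 5 control mice (HFD 1 to 5, vehicle in the labels) had the HFD alone, and the 6 treated mice (IMC 1 to 6) had the same diet with 0.06% w/w IMC, an inhibitor of the gut bacterial enzyme that makes trimethylamine from choline. The series text adds that all animals were already on the diet before the study began, and the sources used here do not state outright the age of the sequenced mice. Each mouse gave 1 mRNA library of whole tissue, and a further control library that the submitters dropped for quality was not analysed here.

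Complex III passes electrons from ubiquinol to cytochrome c, and complex IV passes them on to oxygen, while both pump protons across the inner mitochondrial membrane. ATP synthase uses the resulting proton gradient to make ATP, with a rotating ring in the membrane and a catalytic head in the matrix. White adipocytes hold fewer mitochondria than brown adipocytes or muscle fibres, and several complex IV subunits exist as a widespread form and a form best known from muscle, heart and brown fat.

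Expression was given as log2 CPM, that is, log2 read counts scaled to a common library size, and library totals over the listed genes ran from 22320022 to 25155366 reads. Within each group every pair of mice differed by more than the counting error, and no mouse pair held the same values. A gene was called when its adjusted p was under 0.05 in limma with Benjamini-Hochberg adjustment over all 12787 genes. By that rule 40.9% of all genes were called, of which those higher with IMC made up 20% of all genes and those lower 21.0%. All treated mice lay to one side of all controls for 23.1% of all genes. Of the 38 genes, 9 were called higher and 2 lower, a share of 28.9%, and for 3 of the 38 the treated mice lay to one side of all controls. Of the 32 among them with a mean of at least 4 log2 CPM, 28.1% were called, beside 47.3% of all genes at that level. The tissue was measured whole, so fewer cells of a type and less RNA per cell cannot be told apart. The median log2 fold change was 0.05 over the 38 genes and -0.03 over all genes. Only Cox4i2 had an absolute log2 fold change above 0.5, a size reached by 13.2% of all genes. The count of higher genes among the 38 was 4 without HFD 1, 4 without HFD 3 and 5 without IMC 1, and 4 with an exact permutation test per gene. The count of lower genes was 0 without HFD 1 and 1 without HFD 4, HFD 5, IMC 4 or IMC 5.

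**Figure D1:**
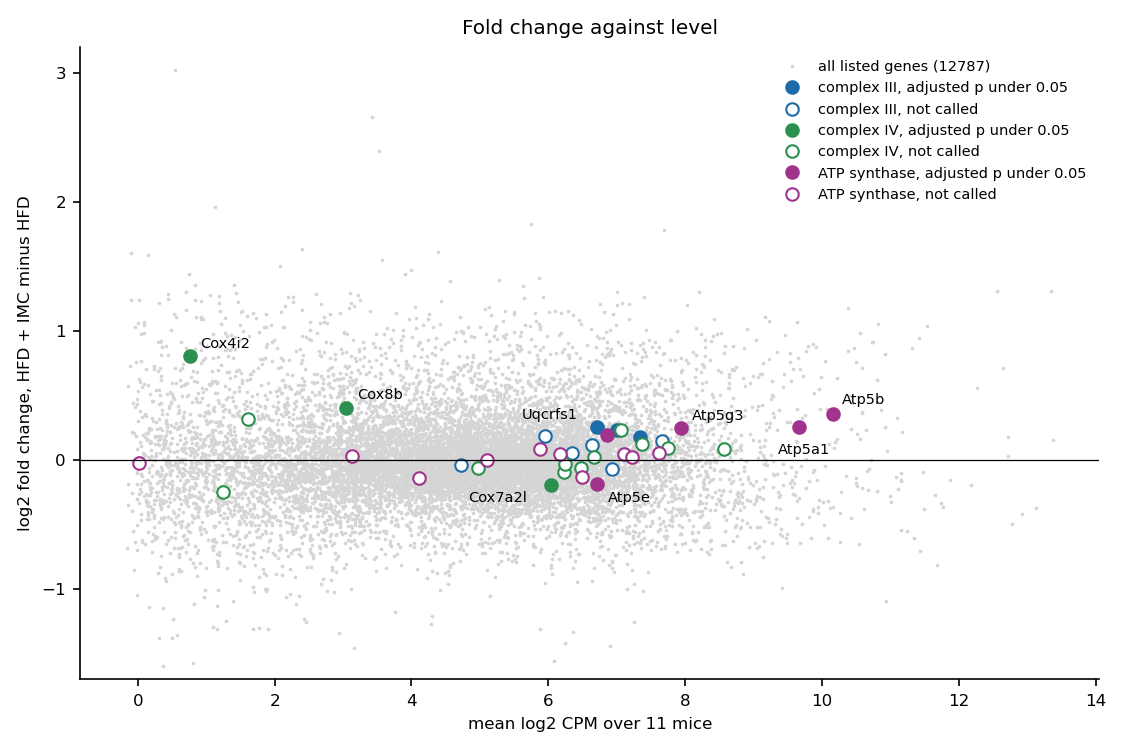
The log2 fold change (HFD + IMC minus HFD) is plotted against the mean log2 CPM over the 11 mice, with all 12787 listed genes in grey and the 38 genes coloured by complex, filled where the adjusted p was under 0.05. The 38 genes lie between -0.25 and 0.80, and Cox4i2, at the left, has the largest fold change of them.

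Promoter sequences are shown for 4 genes that bear on the comparison, picked after their values were seen. Atp5b had the smallest p of the 38 genes, Atp5g3 is the listed higher member of the rotating ring, Uqcr11 holds matches to 2 motifs, and Atp5e was called lower. Each runs from 250 bases before to 50 bases after the RefSeq start in GRCm38.p6, 5′ to 3′ in the direction of the gene, and capitals mark motif matches.
Atp5b promoter, chr10:128083057-128083356, plus strand: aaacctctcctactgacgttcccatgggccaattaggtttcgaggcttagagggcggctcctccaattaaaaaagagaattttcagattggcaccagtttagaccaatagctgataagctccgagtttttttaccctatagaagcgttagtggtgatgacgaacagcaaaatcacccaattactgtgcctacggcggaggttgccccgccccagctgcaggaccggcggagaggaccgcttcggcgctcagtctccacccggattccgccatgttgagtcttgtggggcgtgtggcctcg
Atp5g3 promoter, chr2:73911277-73911576, minus strand: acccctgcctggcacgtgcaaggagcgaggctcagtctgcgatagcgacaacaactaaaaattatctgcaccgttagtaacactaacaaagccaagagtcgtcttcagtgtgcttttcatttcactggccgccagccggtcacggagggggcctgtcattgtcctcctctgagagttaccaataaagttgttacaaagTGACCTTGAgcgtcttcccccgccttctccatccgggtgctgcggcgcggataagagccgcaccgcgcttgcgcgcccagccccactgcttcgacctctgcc
Uqcr11 promoter, chr10:80406772-80407071, minus strand: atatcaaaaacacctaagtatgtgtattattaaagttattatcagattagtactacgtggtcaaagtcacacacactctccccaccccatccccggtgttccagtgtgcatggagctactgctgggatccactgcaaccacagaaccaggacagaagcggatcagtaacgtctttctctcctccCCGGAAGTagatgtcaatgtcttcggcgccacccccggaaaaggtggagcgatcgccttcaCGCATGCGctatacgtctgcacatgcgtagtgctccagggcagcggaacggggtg
Atp5e promoter, chr2:174464052-174464351, minus strand: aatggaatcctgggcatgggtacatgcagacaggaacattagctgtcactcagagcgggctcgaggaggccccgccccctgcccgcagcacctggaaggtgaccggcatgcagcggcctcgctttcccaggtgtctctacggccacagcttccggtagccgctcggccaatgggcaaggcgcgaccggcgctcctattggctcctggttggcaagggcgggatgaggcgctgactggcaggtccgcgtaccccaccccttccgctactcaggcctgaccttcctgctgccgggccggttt

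The capitals in Uqcr11 are CCGGAAGT, a GABPA motif that begins 66 bases before the start, and CGCATGCG, an NRF1 motif that begins 5 bases before it. Those in Atp5g3 are TGACCTTGA, the reverse complement of the ERR motif TCAAGGTCA, beginning 52 bases before the start. Atp5b and Atp5e held no match to the motifs searched, which were these and the YY1 motif AAGATGGC, each on both strands; the NRF1 motif is its own reverse complement. Of the 38 genes, 29 had a RefSeq window. NRF1 letters were in 17.2% of them (Uqcrc1, Uqcr11, Cox6a1, Atp5j and Atp5k) against 2.07% of 27025 genes, and GABPA letters were in 13.8% (Uqcrh, Uqcr11, Cox8a and Atp5h) against 4.31%. The 27025 are all genes with a window, not only those listed in this tissue, so the 2 sets are unlike. YY1 letters were in 13.8% (Atp5f1, Atp5j, Atp5j2 and Atp5sl) against 3.19%, and ERR letters were in Atp5g3 alone, 3.45% against 0.466%. None of the 8 genes with NRF1 or GABPA letters was called with all mice. The called share was 28.9% over the 38 genes, those without a window included, and 40.9% over all genes. The 0 rested on HFD 5, since Uqcr11, Cox8a and Uqcrc1 were called without it (adjusted p = 0.0236, 0.0295 and 0.036 in limma). The called genes Atp5a1, Uqcrc2, Cyc1 and Cox4i2 had no window and so were not searched. The difference in shares was not tested. Among the genes for these factors, Nrf1 had a log2 fold change of -0.11 (adjusted p = 0.147 in limma).

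Complex III had 3 of 9 genes higher and 0 lower in IMC-treated mice, a called share of 33.3% beside 40.9% over all genes. The 3 were those for both redox-active nuclear subunits and a core protein. Uqcrfs1 encodes the Rieske iron-sulfur protein, Cyc1 encodes cytochrome c1, and Uqcrc2 encodes a core protein that faces the matrix. The other core protein gene, Uqcrc1, and the 5 small subunit genes were not called, with log2 fold changes between -0.07 and 0.18.

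Uqcrc2 (chr7:120635189-120659523, plus strand) read 7.16, 7.31, 7.21, 7.34 and 7.23 log2 CPM in HFD 1 to 5 and between 7.35 and 7.57 (median 7.40) in the IMC-treated mice. All 6 treated mice lay above all 5 controls, although the lowest treated value was close to HFD 4. Its log2 fold change was 0.18 ± 0.05 (SE, n = 5 and 6; adjusted p = 0.0155), a rise of 12.9%. A stretch of 26.6% of its exons overlaps Pdzd9 on the opposite strand, and the strand setting of the read count was not given in the sources used here.

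Uqcrfs1 (chr13:30540312-30545316, minus strand) read 6.48, 6.68, 6.39, 6.70 and 6.63 log2 CPM in the controls and between 6.65 and 7.02 (median 6.83) in the treated mice. The groups overlapped at IMC 4 and IMC 5, and 4 of the 6 treated mice lay above all controls. Its log2 fold change was 0.25 ± 0.08 (adjusted p = 0.0201).
Cyc1 (chr15:76343513-76346260, plus strand) read 6.80, 6.90, 6.78, 6.93 and 6.99 log2 CPM in HFD 1 to 5, with a treated range of 6.90 to 7.36 (median 7.12). Again IMC 4 and IMC 5 were the treated mice inside the control range, and the log2 fold change was 0.23 ± 0.08 (adjusted p = 0.0294). Uqcrfs1 lost its call without HFD 1 or HFD 3 (adjusted p = 0.0522 and 0.0582) and by the exact permutation test per gene (0.0558), and Cyc1 lost it without HFD 1, HFD 3, IMC 1 or IMC 2 (adjusted p from 0.0571 to 0.0752) and with total-count scaling (0.0598) and by the permutation test (0.0676). Uqcrc2 kept its call in every alternative run. For the whole complex the count of higher genes was 1 without HFD 1 or HFD 3, and 5 without HFD 5 or IMC 4, when Uqcr11 and Uqcrc1 were also called. No complex III gene was lower at an unadjusted p under 0.05 in limma, nor by voom or the permutation test.

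Among the genes not called, Uqcr11 had a log2 fold change of 0.18 ± 0.07 (adjusted p = 0.0653) and was called without HFD 5, IMC 4 or IMC 5 (adjusted p = 0.0236, 0.0391 and 0.0351). Uqcrc1 had 0.14 ± 0.06 and was called without HFD 5 or IMC 4 (adjusted p = 0.036 and 0.0466). Uqcr10 had 0.05 ± 0.07 (adjusted p = 0.575) and Uqcrb -0.04 ± 0.08 (adjusted p = 0.719). The 95% interval for Uqcrb ran from -0.22 to 0.14, and its level is uncertain because 43.2% of the 50-base stretches of its transcript also occur in other genes.

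Complex IV had 2 of 14 genes higher and 1 lower, a called share of 21.4% beside 40.9% over all genes. Both higher genes, Cox4i2 and Cox8b, are paralogs at lower levels per kilobase of exon than their widespread partners, with 2.84 CPM per kb in treated mice for Cox4i2 against 511 for Cox4i1, and 26.1 for Cox8b against 264 for Cox8a. The lower gene was Cox7a2l, named above as a supercomplex factor, and the function of its product in these mice was not tested. The 5 other subunits, Cox5a, Cox5b, Cox6b1, Cox6c and Cox7b, had log2 fold changes from -0.09 to 0.09 and none was called, with Cox6c at -0.04 ± 0.08 (SE; adjusted p = 0.748).

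Cox8b (chr7:140898942-140900446, minus strand), the form of subunit 8 found in muscle, heart and brown fat, read 2.87, 3.06, 2.47, 2.62 and 3.12 log2 CPM in the controls. The treated mice had 3.10 to 3.36 (median 3.23), and 5 of 6 lay above all controls, with IMC 5 just under HFD 5. Its log2 fold change was 0.40 ± 0.12 (adjusted p = 0.0147), a rise of 32.2%, and the call held in every alternative run.

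Cox4i2 (chr2:152753916-152765039, plus strand), the form of subunit 4 known for its regulation by oxygen and its expression in lung, had the largest fold change of the 38 genes at a low level. It read 0.18, 0.51, 0.25, -0.55 and 1.23 log2 CPM in HFD 1 to 5 and 0.59 to 1.63 (median 1.14) in the treated mice, from 16 to 75 reads per library. HFD 5 lay above 5 of the 6 treated mice, so that only IMC 6 exceeded all controls. The log2 fold change was 0.80 ± 0.27 (adjusted p = 0.0308), and the call was lost without HFD 1, HFD 3, HFD 4, IMC 1, IMC 3 or IMC 6 (adjusted p from 0.0513 to 0.0755) and by the exact permutation test per gene (0.0676).

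Cox7a2l (chr17:83501917-83514333, minus strand) read 6.19, 6.09, 6.12, 6.23 and 6.11 log2 CPM in the controls and 5.79 to 6.10 (median 5.97) in the treated mice. All treated mice except IMC 6 lay below all controls. Its log2 fold change was -0.20 ± 0.06 (adjusted p = 0.0226), and the call was lost without HFD 1 (adjusted p = 0.052) or HFD 4 (0.0574). For this gene 17.7% of the 50-base stretches also occur in a pseudogene.
The count of higher complex IV genes was 1 without HFD 1, HFD 3, HFD 4, IMC 1, IMC 3 or IMC 6, and 3 without HFD 5.

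**Figure D2:**
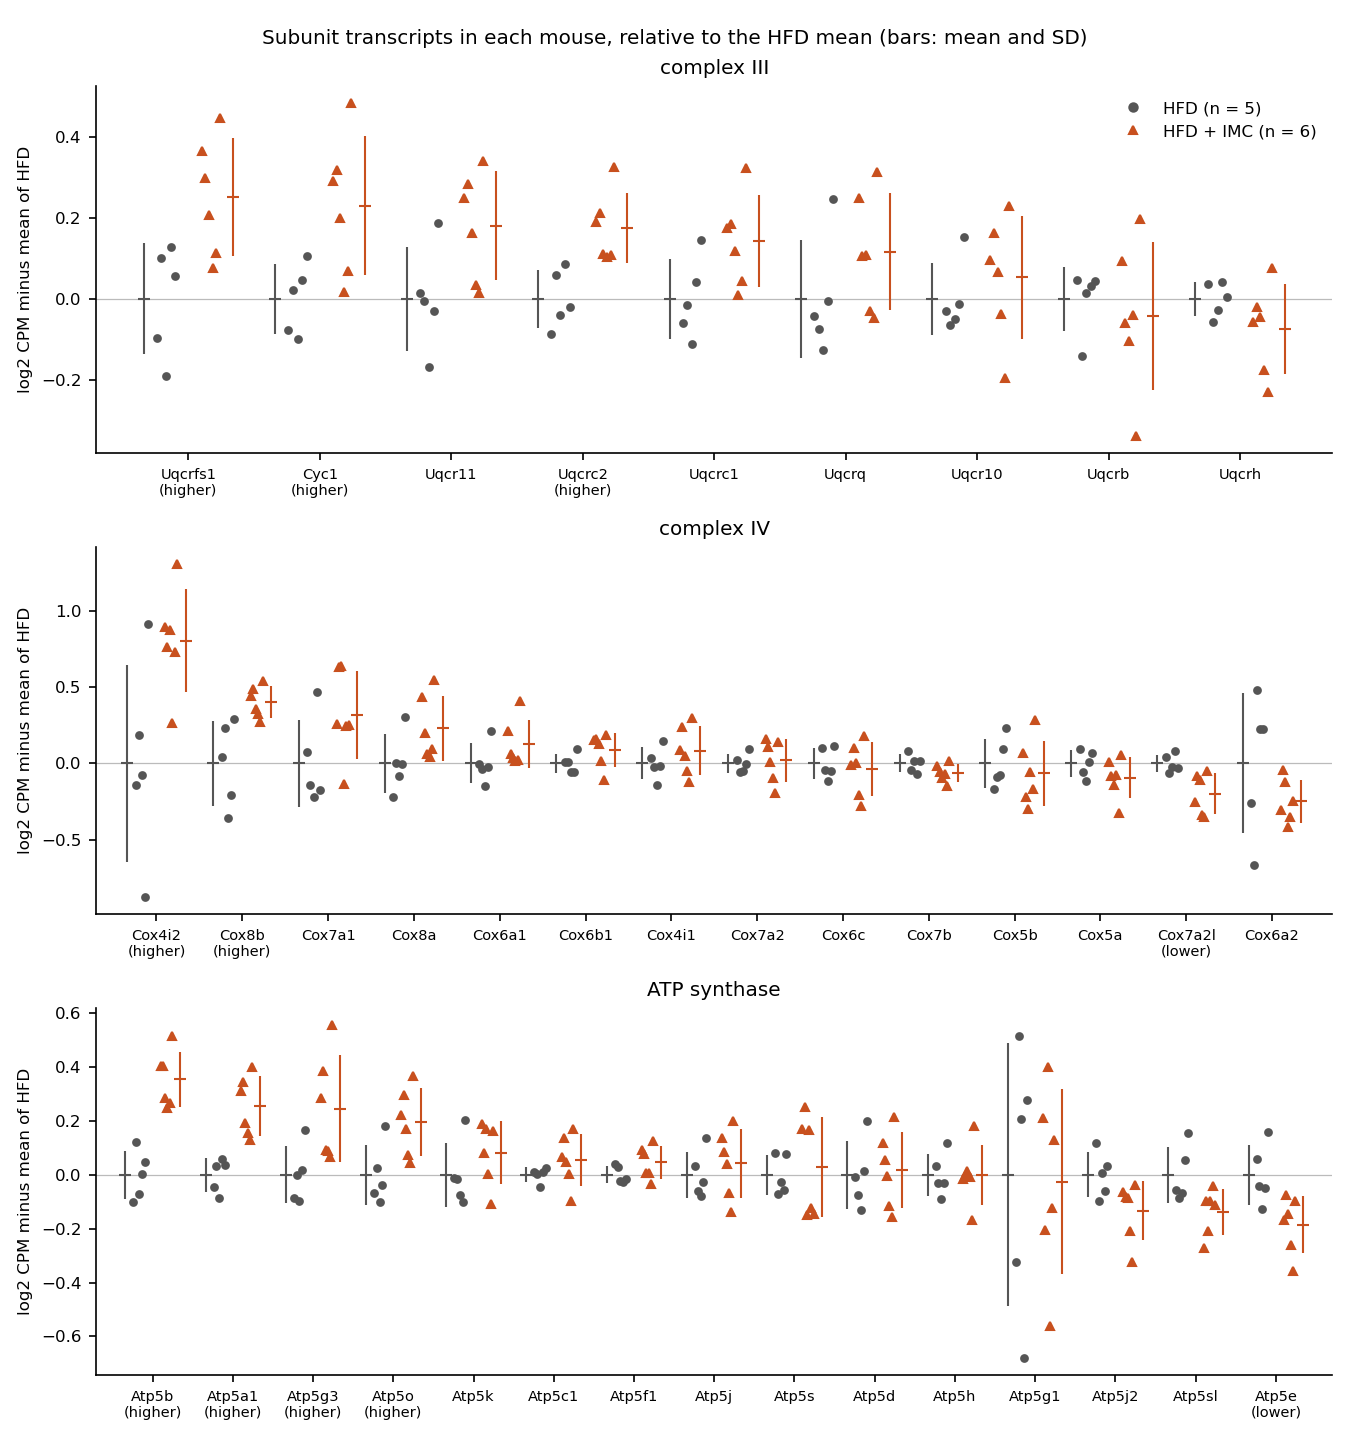
Each point is the log2 CPM of a mouse minus the mean of the 5 HFD mice for that gene (circles HFD, triangles HFD + IMC, bars mean and SD), with genes of each complex ordered by fold change and called genes marked. The groups are apart for Uqcrc2, Atp5b and Atp5a1 and overlap for the other 35 genes.

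The paralog pairs were compared as a log2 ratio within each mouse, which does not depend on the scaling of the library, with a two-sided exact permutation test over 462 splits of the mice and Benjamini-Hochberg adjustment over the 5 pairs. None passed. Cox4i2 over Cox4i1 was -8.20 ± 0.59 (SD, n = 5) in controls and -7.48 ± 0.25 (n = 6) in treated mice, a difference of 0.72 (exact p = 0.0173, adjusted 0.0866). HFD 5 alone among the controls, at -7.43, lay inside the treated range of -7.89 to -7.19. Without HFD 5 the difference was 0.91 (exact permutation test, adjusted p = 0.0238), and without HFD 2 it was 0.77 (adjusted p = 0.0476).

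The ratio of Cox8b to Cox8a differed by 0.17 (exact permutation, adjusted p = 0.230), and Cox8a itself had a log2 fold change of 0.23 ± 0.11 (adjusted p = 0.103 in limma, and 0.0295 without HFD 5). Cox7a1 over Cox7a2, the muscle against the widespread form of subunit 7a, differed by 0.29 (exact permutation, adjusted p = 0.188). Cox7a1 read 1.44 ± 0.29 log2 CPM in controls and 1.75 ± 0.29 in treated mice (adjusted p = 0.152 in limma), and Cox7a2 had a log2 fold change of 0.02 ± 0.06 (adjusted p = 0.818). Cox6a2 over Cox6a1, again muscle against widespread, differed by -0.37 (exact permutation, adjusted p = 0.188) and by -0.53 without HFD 2 (adjusted p = 0.0476). Cox6a2 lay at 1.38 ± 0.46 log2 CPM in controls and 1.13 ± 0.14 in treated mice (adjusted p = 0.313 in limma). The widespread forms Cox4i1 and Cox6a1 had log2 fold changes of 0.08 ± 0.08 and 0.13 ± 0.08, and neither was called. The muscle-type forms had differences of both signs, and Cox6b2 and Atp5g2 were not analysed here.

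**Figure D3:**
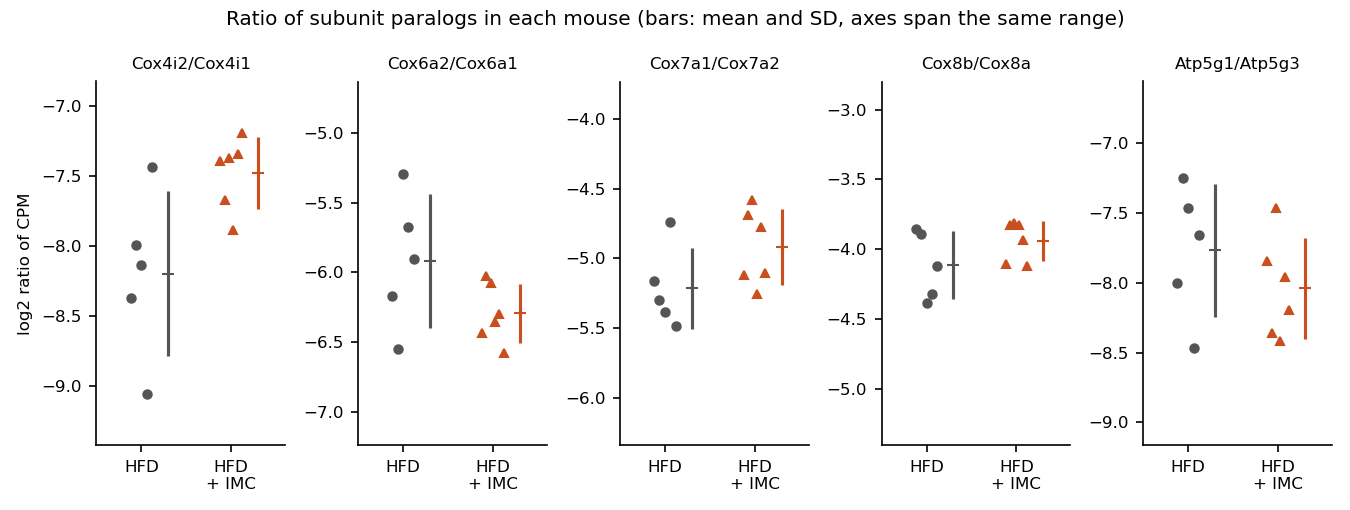
The log2 ratio of CPM between paired subunit genes is shown for each mouse (circles HFD, triangles HFD + IMC, bars mean and SD), each panel spanning the same number of log2 units. For Cox4i2 over Cox4i1, HFD 5 at -7.43 is the control inside the treated range.

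ATP synthase had 4 of 15 genes higher and 1 lower, a called share of 33.3% beside 40.9% over all genes. In the catalytic head, the alpha and beta subunit genes Atp5a1 and Atp5b rose. In the central stalk the small epsilon subunit gene Atp5e fell, while Atp5c1 and Atp5d, for the gamma and delta subunits, were not called. Atp5g3, for the rotating ring, and Atp5o, for the stalk that holds the head still, were also higher. The other 10 genes had log2 fold changes from -0.14 to 0.08, and Atp5j2, of the membrane part, was called lower with total-count scaling alone (adjusted p = 0.0306). Of these, Atp5s had 0.03 ± 0.09 (adjusted p = 0.833) and Atp5sl -0.14 ± 0.07 (adjusted p = 0.107).

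Atp5b (chr10:128083307-128090388, plus strand) read 9.87, 10.09, 9.90, 9.97 and 10.02 log2 CPM in HFD 1 to 5 and 10.22 to 10.48 (median 10.31) in the treated mice. No treated mouse reached down to a control. The log2 fold change was 0.35 ± 0.07 (adjusted p = 0.00129), a rise of 27.8%, and it lay between 0.32 and 0.38 in every alternative run. Per kilobase of exon Atp5b was the highest of the 38 genes in controls, at 524 ± 32.5 CPM per kb (SD), and stood at 670 ± 48.7 CPM per kb in treated mice. Cox4i1 followed in the controls with 481 ± 34.9 CPM per kb.

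Atp5a1, on chromosome 18, read 9.47, 9.55, 9.43, 9.58 and 9.55 log2 CPM in the controls and 9.65 to 9.92 (median 9.77) in the treated mice. The groups did not overlap, and the log2 fold change was 0.25 ± 0.06 (adjusted p = 0.00618), called in every alternative run. A stretch of 4.44% of its exons overlaps Haus1 on the opposite strand.

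Atp5e (chr2:174461075-174464101, minus strand) read 6.87, 6.77, 6.69, 6.76 and 6.97 log2 CPM in the controls and 6.45 to 6.74 (median 6.65) in the treated mice. It thus ran opposite to Atp5a1 and Atp5b of the catalytic head, with 4 of 6 treated mice below all controls. The log2 fold change was -0.18 ± 0.06 (adjusted p = 0.0315). The call was lost without HFD 1, HFD 5, IMC 4 or IMC 5 (adjusted p from 0.0594 to 0.0766).

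Atp5g3 (chr2:73908447-73912464, minus strand) read 7.72, 7.81, 7.71, 7.83 and 7.97 log2 CPM in HFD 1 to 5, with a treated range of 7.87 to 8.36 (median 8.0). Its log2 fold change was 0.25 ± 0.09 (adjusted p = 0.0405), and 3 of 6 treated mice lay above all controls.
Atp5o (chr16:91925223-91931630, minus strand) read 6.69, 6.78, 6.65, 6.71 and 6.93 log2 CPM in the controls and 6.80 to 7.12 (median 6.95) in the treated mice, with a log2 fold change of 0.20 ± 0.07 (adjusted p = 0.0329). Its exons overlap D430001F17Rik on the opposite strand over 30.9% of their length, and 19.1% of its 50-base stretches occur in a pseudogene. These were the least stable calls of the complex. Atp5g3 lost its call without HFD 1, 2, 3 or 4 or IMC 1, 2 or 6 (adjusted p from 0.0658 to 0.0952), and Atp5o without HFD 1, HFD 3, HFD 4, IMC 1, IMC 2 or IMC 6 (adjusted p from 0.0583 to 0.0862), and both lost it with total-count scaling (0.075 and 0.0734) and by the exact permutation test per gene (0.0827 and 0.0716). Atp5g3 also lost it without the variance trend (0.0574). The count of higher ATP synthase genes was 3 without HFD 2 and without the variance trend, where Atp5g3 alone lost its call, and 2 in the other cases.

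Atp5g1, the low paralog of Atp5g3, was at 0.04 ± 0.49 log2 CPM in controls and 0.01 ± 0.34 in treated mice (adjusted p = 0.948), with 15 to 34 reads per library. The ratio Atp5g1 over Atp5g3 differed by -0.27 (exact permutation, adjusted p = 0.307). Atp5h, for a subunit of the outer stalk, had the smallest difference of the 38 genes, with 5.10 log2 CPM in both groups (95% interval of the difference from -0.13 to 0.13), although 47.9% of its 50-base stretches also occur in other genes. Over 10% of such stretches were shared for Atp5f1, Cox5b, Cox6c, Cox6a1, Uqcr11 and Atp5g1 as well. Exons of Cox6a2, Cox5a, Cox4i1, Atp5f1, Atp5j and Uqcrb overlap a gene on the opposite strand, and for Atp5j that gene is Gabpa, itself among the regulators.

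The summed level of the 15 ATP synthase genes was 2789 to 3095 CPM in controls and 3136 to 3810 CPM in treated mice, without overlap. Atp5b and Atp5a1, whose own groups did not overlap, weigh most in this sum, at 9.97 and 9.52 log2 CPM in controls. With each of the 15 genes centred on its own mean, the mean over them did overlap, from -0.092 to 0.090 in controls and from -0.11 to 0.14 in treated mice. The sums overlapped for complex III (885 to 1009 and 936 to 1173 CPM) and for complex IV (1235 to 1450 and 1217 to 1574 CPM). When each gene was centred on its mean so that all genes weigh the same, the mean over the 38 genes ran from -0.11 to 0.09 in controls and from -0.11 to 0.20 in treated mice.

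Certain mice were high or low for most of the 38 genes at the same time. IMC 6 was the highest treated mouse for 30 of the 38 genes, against 23.9% of all genes, and IMC 5 was the lowest for 24, against 16.8% of all genes. Among controls HFD 5 was the highest for 23 of the 38 genes, against 25.4% of all genes, and HFD 3 the lowest for 19, against 13.6%.

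**Figure D4:**
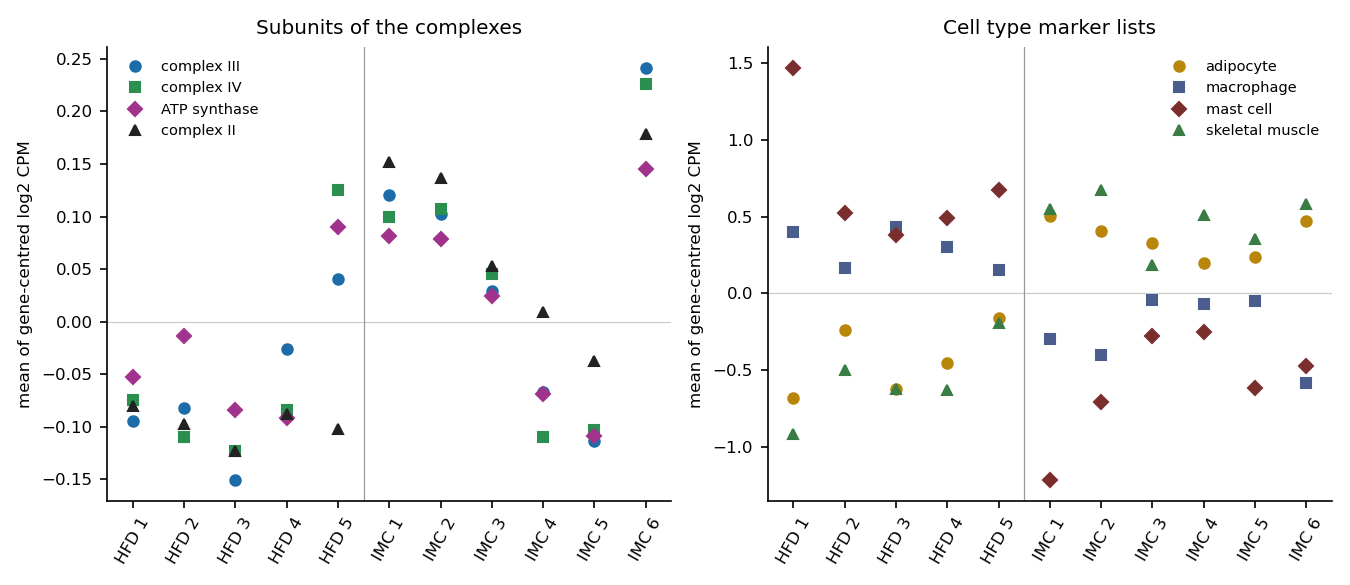
The mean of gene-centred log2 CPM is shown for each mouse over the subunits of complexes II, III, IV and ATP synthase (left) and over 4 cell type marker lists (right), with a line between HFD and HFD + IMC. HFD 5 lies at 0.13 for complex IV, above IMC 4 and IMC 5 at -0.11 and -0.10.

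Calls were also counted for markers of the cells that adipose tissue can hold, beside 20% higher and 21.0% lower over all genes. Of 12 adipocyte markers 11 were higher, with a summed level of 19769 to 24533 CPM in controls and 30138 to 34922 CPM in treated mice. Of 12 macrophage markers 10 were lower, with sums of 13806 to 18811 and 7361 to 11913 CPM. All 7 mast cell markers were lower, with sums of 507 to 1157 and 161 to 326 CPM, and 4 of 6 progenitor and fibroblast markers and 1 of 4 mesothelial markers were lower. Of the 11 listed skeletal muscle markers 7 were higher, with sums of 41.9 to 66.6 and 109 to 149 CPM, while 9 others, Ckm, Myh1 and Myh4 among them, were not analysed here. The muscle markers not called were Tnni2, Actn3, Ryr1 and Neb, with log2 fold changes of -0.27, -0.12, 0.01 and 0.25. Of the 6 listed brown and beige adipocyte markers 3 were higher, with sums of 54.4 to 72.8 and 107 to 156 CPM, and 5 others, among them the defining marker Ucp1, were not analysed here. Kcnk3 weighs most in these sums, with means of 5.10 log2 CPM in controls and 6.50 in treated mice. The brown and beige markers not called were Dio2, Tmem26 and Elovl3, with log2 fold changes of -0.35, -0.43 and 0.43. Of 5 endothelial markers 1 was higher. This share of 20%, and the 25% of mesothelial markers that were lower, were near the shares over all genes. The lymphocyte and epididymal epithelium lists had no gene to analyse here. The part of these lists in the subunit results was not tested.

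Within groups, HFD 5 and IMC 6, highest for most of the 38 genes, also had adipocyte means at the top of the controls (-0.16) and next to the top of the treated mice (0.47), and the lowest macrophage means of their groups (0.15 and -0.58). IMC 4 and IMC 5 had the lowest adipocyte means of the treated mice (0.20 and 0.24). HFD 5 also had the highest skeletal muscle mean of the controls (-0.19), while among treated mice IMC 2 (0.67) lay above IMC 6 (0.58). IMC 6 had the highest brown and beige adipocyte (0.52) and endothelial (0.31) means of the treated mice. Among controls HFD 2 was highest for both lists (-0.08 and 0.19), with HFD 5 at -0.21 and -0.07. HFD 2 was the lowest control for 9 of the 38 genes. HFD 3, the lowest control for 19 of the 38 genes, had an adipocyte mean of -0.62, above HFD 1 at -0.68. IMC 1 had the highest adipocyte mean of the treated mice (0.51). The link of these means to the subunit genes was not tested.

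Of the 36 listed genes that assemble or restrain the 3 complexes, 10 were called higher and 5 lower, and this share of 41.7% stood beside 40.9% over all genes. The gene with the smallest p was Atpif1, which encodes the inhibitor protein of ATP synthase. It read 6.95, 6.53, 6.73, 6.69 and 6.74 log2 CPM in HFD 1 to 5 and 5.97 to 6.21 (median 6.12) in the treated mice, and every treated mouse lay below every control. The log2 fold change was -0.61 ± 0.07 (adjusted p = 4.14e-05). Atpaf2, an assembly factor of the catalytic head, read 5.32, 5.64, 5.45, 5.60 and 5.66 in the controls and 5.91 to 6.21 (median 5.97) in the treated mice, with a log2 fold change of 0.50 ± 0.08 (adjusted p = 0.000366). In all, 2 of the 5 listed genes for ATP synthase assembly and inhibition were higher and 1 lower. These shares of 40% and 20% stood beside 20% and 21.0% over all genes.

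Of the 25 listed genes for complex IV assembly, 6 were higher and 2 lower. The called share of 32% was below the 40.9% over all genes, with 24% higher beside 20% and 8% lower beside 21.0%. Higd2a and Higd1a, whose products associate with complex IV and its supercomplexes, had log2 fold changes of 0.39 ± 0.06 (adjusted p = 0.000252) and 0.48 ± 0.08 (adjusted p = 0.000545), both without overlap between the groups. Of the 6 genes for complex III assembly, 2 were higher and 2 lower, 33.3% each way beside the same 20% and 21.0%. Uqcc1 had a log2 fold change of 0.31 ± 0.05 (adjusted p = 0.000547) and Ttc19 had 0.18 ± 0.06 (adjusted p = 0.0273), the latter lost without HFD 1, HFD 3, HFD 4 or IMC 1 (adjusted p from 0.0522 to 0.0714) and with total-count scaling (0.0637).

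**Figure D5:**
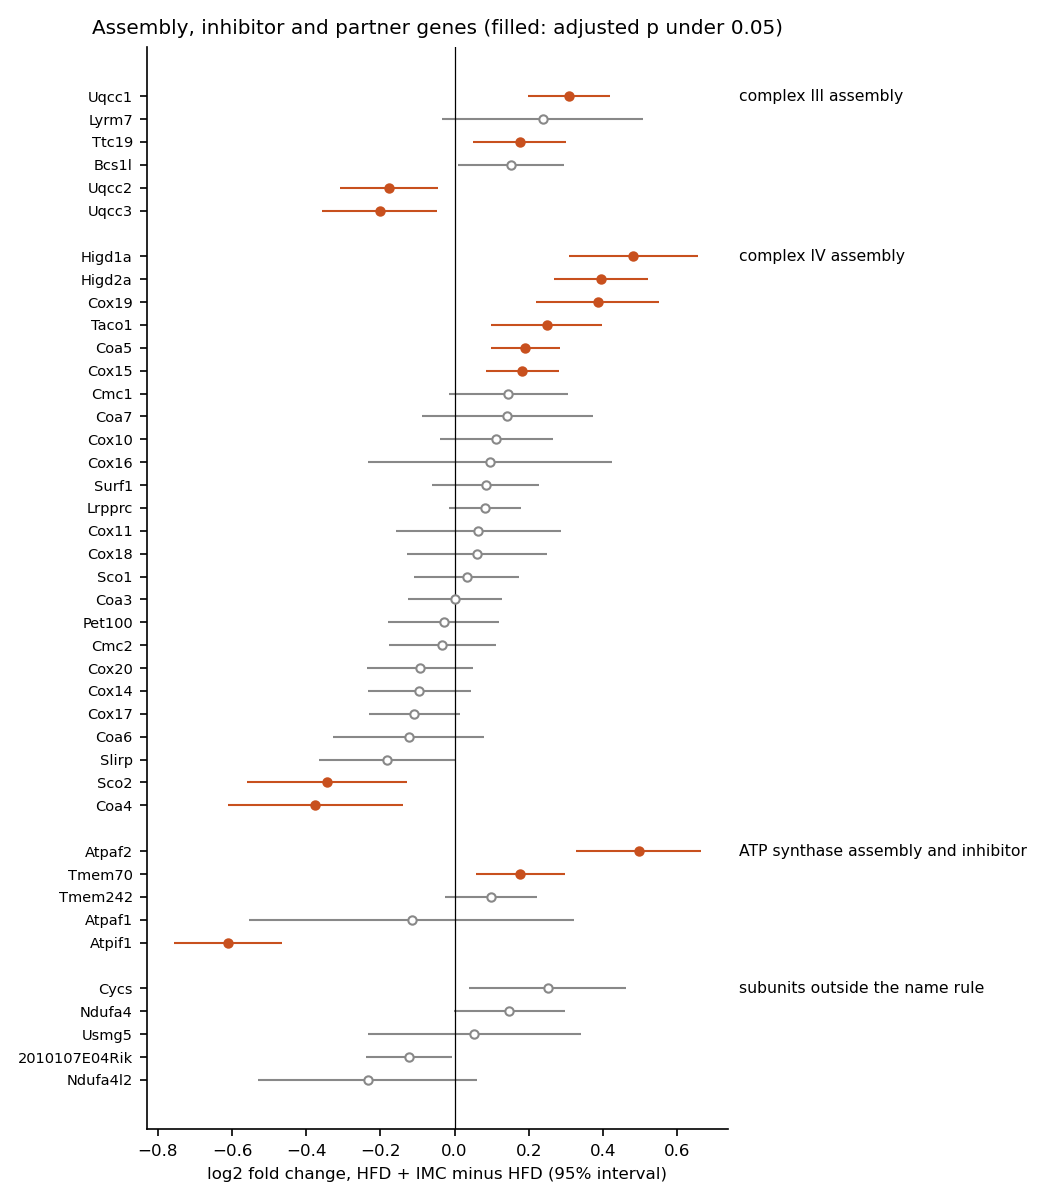
Log2 fold changes (HFD + IMC minus HFD) with 95% intervals are shown for the listed assembly, inhibitor and partner genes, filled where the adjusted p was under 0.05. Atpif1 at -0.61 lies farthest to the left and Atpaf2 at 0.50 farthest to the right.

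Partners of the complexes that the symbol rule leaves out were not called. Cycs, for cytochrome c, had a log2 fold change of 0.25 ± 0.10 (adjusted p = 0.0553) and was called without IMC 5 (adjusted p = 0.0245), with median-centred scaling (0.046), and without the variance trend (0.0345), and 2010107E04Rik, for a small ATP synthase subunit, had -0.12 ± 0.05 (adjusted p = 0.0856, and 0.0283 with total-count scaling). These were 2 of the 5 listed genes of that kind, the only ones with an unadjusted p under 0.05 in limma, and voom and the permutation test called 0 of the 5. Of the 6 listed regulators of mitochondrial genes 0 were called in limma, 0 had an unadjusted p under 0.05, and 0 were called by voom or the permutation test, among them Ppargc1b with 0.26 ± 0.15 (adjusted p = 0.188), while Ppargc1a and the mitochondrially encoded subunits were not analysed here. In complex II 3 of 4 genes were higher, 75% beside 20% over all genes, with Sdha at 0.37 ± 0.05 (adjusted p = 0.000231) and Sdhc at 0.20 ± 0.05 (adjusted p = 0.0111). In complex I 9 of 35 subunit genes were higher and 0 lower, also 0 lower at an unadjusted p under 0.05 and by voom or the permutation test, with Ndufb3 at 0.47 ± 0.07 (adjusted p = 0.00021) and Ndufs1 at 0.28 ± 0.05 (adjusted p = 0.000415). The share of complex I genes called higher was 25.7%, beside 20% over all genes, and its 0 lower stood beside 21.0%. The difference between these complexes and the 38 genes was not tested.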

How the data were processed

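Gonadal adipose mRNA from 11 mice was sequenced, 1 library per mouse. After trimming (Trim Galore) and alignment to mm10 (STAR), the authors applied upper-quartile scaling in edgeR and deposited log2 CPM values for 12787 genes. The kit marks strand, but the strand setting of the count was not given in the sources used here. The table also has 5 columns of the authors' own comparison, which were not used.

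From these values, limma (version 3.58.1 in R 4.3.3) was fitted to all genes with group as the only term, eBayes with a trend of variance on level, and Benjamini-Hochberg adjustment over all genes with a threshold of 0.05. This replaced the study's count model, since the values are not counts. Paralog ratios were compared with a two-sided exact permutation test over 462 splits (smallest p 0.00216) in Python 3.11.15. Both steps were tested on simulated data. Levels per kilobase used GENCODE exon lengths on GRCm38, and gene intervals were from RefSeq. With 22320022 to 25155366 reads per library, genes with under 100 reads, such as Cox4i2, carry most counting error. Mice were grouped by the treatment label and numbered within groups in the order of the samples. The labels give no pairing, cage or batch, and limma weighs each group difference against the spread between mice within groups. The paper states that mice were housed in groups, so any that shared a cage were treated as independent here.

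The alternatives were median-centred and total-count scaling, log2(CPM + 1), a mean log2 CPM of at least 1, eBayes without trend and with robust fitting, a permutation test per gene and leaving out each mouse. A voom fit on reads recovered from the steps between low values, which gave whole reads within 0.05 for 100% of the low values examined, was added after the data were seen. It called 5213 genes, against 5236 in limma on the deposited values.

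Members, lists and pairs were chosen with earlier results of these data known. Named are, in each complex, the 4 members with the smallest and the 2 with the largest p, both members of each paralog pair, each lower member, members overlapping another gene, and the 2 genes of smallest p in each pathway list. Other genes named, the role groups, the motifs and the promoters shown were chosen after values were seen.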

Additional observations from a re-analysis of the deposited data

Results flagged for a closer look

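In 4 of the 114 groups of mice examined, over the 38 genes, the paralog ratios and the named pathway genes, 1 mouse stood apart from the others of its group by Dixon's test, which chance gives in about 1 in 20 groups. Uqcr10 was high in HFD 5 at 6.47 log2 CPM, with the next control at 6.31. Uqcrb was low in HFD 2 at 4.60 log2 CPM, with the next control at 4.76. Ttc19 was high in IMC 1 at 3.71 log2 CPM, with the next treated mouse at 3.66. The subunit gene 2010107E04Rik was low in IMC 5 at 5.76 log2 CPM, with the next treated mouse at 5.92.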

How the results depend on the processing

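Of the 11 called genes among the 38, Atp5b, Atp5a1, Cox8b and Uqcrc2 kept the call in all 19 alternatives, and 0 of the 11 changed direction. Of the 27 others, 23 stayed uncalled and 7 changed direction in at least 1 alternative.

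When each mouse was left out in turn, the count of higher genes among the 38 ran from 4 to 12 (9 with all mice) and of lower ones from 0 to 2. The higher count ran from 1 to 5 in complex III, from 1 to 3 in complex IV and from 2 to 4 in ATP synthase, and 3 to 5 of the pathway genes outside complex I were lower. The permutation test per gene gave 4 higher genes, of which 1 was in complex III, 1 in complex IV and 2 in ATP synthase. Complex IV had 1 with a mean log2 CPM of at least 1, since that filter removed Cox4i2, and ATP synthase had 2 with total-count scaling. The ratio Cox4i2 over Cox4i1 differed by 0.51 to 0.91 and passed without HFD 2 (0.77) or HFD 5, and Cox6a2 over Cox6a1 differed by -0.53 to -0.22 and passed without HFD 2.

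The 7 that changed direction were never called. As mice were left out, named genes among them ran across 0, namely Uqcrb (-0.089 to 0.018), Cox6c (-0.080 to 0.013), Cox7a2 (-0.0066 to 0.064), Atp5g1 (-0.20 to 0.10) and Atp5h (-0.037 to 0.034). The others were Atp5d (-0.021 to 0.069) and Atp5s (-0.016 to 0.064), both over all alternatives. Cox7a2 was at -0.011 with total-count scaling, and Atp5h at 0.0085 with median-centred scaling, 3.1e-05 with log2(CPM + 1) and 4.2e-05 with voom.

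Total-count scaling moved the share of higher genes among all calls from 48.8% to 40.3% and the median of all genes from -0.03 to -0.06. The cause was not tested. No paired analysis was possible because the mouse numbers follow sample order and pair no animals. Cox4i2 and Atp5g1, with 15 to 75 reads per library, were limited by depth. The paralogs Cox6a2 (38 to 86 reads) and Cox7a1 (55 to 95 reads) also stayed under 100 reads in every library.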
